A study of Mus musculus with 2 samples.

Results

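Granzymes and the genes that act with them form the killing program of cytotoxic lymphocytes. The set described here has 9 members, chosen by symbol: the granzymes Gzma, Gzmb and Gzmk, the pore former Prf1, the granule membrane protein gene Nkg7, the effector ligands Ifng and Fasl, the receptor gene Klrd1 and the transcription factor gene Eomes. Each of the 9 had 1 row among the 31053 genes measured. They were counted in kidney cortex of 12-week-old mice, in 1 single-cell library of I-PpoI animals, in which podocytes express this nuclease, and 1 library of wild-type (WT) animals. The nuclease belongs to the homing endonucleases, which cut DNA at a long recognition sequence. The labels give neither the promoter that drives it nor how many mice went into a library. After filtering, 3920 I-PpoI and 3071 WT cells were kept, with medians of 6616 and 3485 UMIs (counted molecules) per cell. The median share of UMIs from mitochondrial genes was 3.31% in I-PpoI cells and 14.3% in WT cells. The libraries shared 3 cell barcodes among kept cells and 0 among T and NK lymphocytes. With 1 library per group no test between the groups is possible, so intervals (95%, exact) cover counting error only and not differences between mice. Intervals on UMIs also take each UMI as a separate draw and leave out differences between cells. They are too narrow where few cells hold most of the UMIs.

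Cytotoxic T cells and natural killer (NK) cells store perforin and granzymes in secretory granules and release them onto a bound target cell. Perforin opens the target membrane, and granzymes are serine proteases that then act inside the target. The same cells can also kill through Fas ligand and alert macrophages and tissue cells through interferon gamma.

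Gzma (chr13:113093825-113100981, minus strand) and Gzmk (chr13:113171608-113225908, minus strand) lie on the same strand of one chromosome in GRCm38 by GENCODE release 21. Gzmk overlaps Esm1 and Eomes overlaps Gm33460 on the opposite strand, and Ifng overlaps Gm49751 on the same strand. Whether these overlaps bear on the counts of the 3 members was not tested. The promoters of the 3 granzymes and of Nkg7 are shown because the values below turn on these genes. Capitals mark the T-box motif GGTGTGA or its reverse TCACACC, and the Runx motif TGTGGT or its reverse ACCACA. T-box factors (Eomes and Tbx21) and Runx3 are known regulators of cytotoxic genes. Each window is 300 bases around the RefSeq start, most of it upstream, 5′ to 3′ along the gene (RefSeq, GRCm38.p6). RefSeq and GENCODE can place a gene's start differently, as for Gzmb and Gzmk. For Gzmb the window lies just beyond the GENCODE start at 56262260. The Gzmk window lies inside the GENCODE gene, far from its start at 113225908 on the minus strand.
Gzma, chr13:113100932-113101231, minus strand: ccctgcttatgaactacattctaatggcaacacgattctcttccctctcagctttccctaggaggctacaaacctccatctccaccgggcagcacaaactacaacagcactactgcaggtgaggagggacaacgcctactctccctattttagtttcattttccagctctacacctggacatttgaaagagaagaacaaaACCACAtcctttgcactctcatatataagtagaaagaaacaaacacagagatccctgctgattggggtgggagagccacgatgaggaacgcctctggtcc
Gzmb, chr14:56262285-56262584, minus strand: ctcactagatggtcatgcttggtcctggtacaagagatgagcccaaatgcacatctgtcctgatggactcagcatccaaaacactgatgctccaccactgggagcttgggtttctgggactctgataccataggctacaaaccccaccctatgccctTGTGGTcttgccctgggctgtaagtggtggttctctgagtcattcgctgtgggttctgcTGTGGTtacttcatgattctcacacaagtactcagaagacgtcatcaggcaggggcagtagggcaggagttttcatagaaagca
Gzmk, chr13:113180916-113181215, minus strand: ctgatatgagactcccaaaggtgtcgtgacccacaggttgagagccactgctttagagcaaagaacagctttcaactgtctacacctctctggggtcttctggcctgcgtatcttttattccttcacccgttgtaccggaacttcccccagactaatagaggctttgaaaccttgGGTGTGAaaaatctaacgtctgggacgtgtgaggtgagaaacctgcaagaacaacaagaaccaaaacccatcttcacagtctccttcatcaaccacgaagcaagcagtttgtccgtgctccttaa
Nkg7, chr7:43436888-43437187, plus strand: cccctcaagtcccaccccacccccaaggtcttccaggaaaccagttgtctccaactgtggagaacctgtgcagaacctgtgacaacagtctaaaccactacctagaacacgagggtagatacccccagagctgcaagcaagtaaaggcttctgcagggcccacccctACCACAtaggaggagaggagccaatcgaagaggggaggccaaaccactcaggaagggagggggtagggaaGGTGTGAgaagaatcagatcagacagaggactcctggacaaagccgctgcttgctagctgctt
The motifs searched do not overlap one another in these windows. Gzma held 1 Runx match, Gzmb 2 Runx matches, Gzmk 1 T-box match, and Nkg7 1 match of each kind. Among 32851 promoters of this length, 3.98% held the T-box letters and 16.8% the Runx letters. Windows were found for 8 of the 9 members, all but Klrd1, and of the other windows only that of Prf1 held a match (Runx). A match is a string of letters and not a shown binding site.

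Of all UMIs of the 9 members in kept cells, a single cluster held 964 of 1330 in I-PpoI and 463 of 609 in WT, the T and NK lymphocytes. This cluster held 259 I-PpoI cells (6.61% of kept cells, interval 5.85 to 7.43) and 60 WT cells (1.95%, 1.49 to 2.51). Median depth was close, at 2877 UMIs in I-PpoI and 3012 in WT lymphocytes. Proximal tubule-like cells, which should lack the genes, gave the background: 0 of 52 I-PpoI cells and 1 of 1335 WT cells had a granzyme UMI, at median depths of 2277.5 and 3384 UMIs. In the T and NK cluster that share was 61 of 259 I-PpoI cells (23.6%, 18.5 to 29.2) and 13 of 60 WT cells (21.7%, 12.1 to 34.2). With each cell thinned to 1000 UMIs it was 35 of 253 I-PpoI cells (13.8%) and 7 of 58 WT cells (12.1%), after leaving out 6 and 2 shallower cells. The shares of lymphocytes with a granzyme transcript lay inside each other's intervals, while lymphocytes made up a larger share of all kept I-PpoI than WT cells. That share depends on the other cells kept. Proximal tubule-like cells were 52 of 3920 in I-PpoI and 1335 of 3071 in WT, and macrophage-like cells 1553 and 176. The share of lymphocytes among immune cells is not given here.

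**Figure D1:**
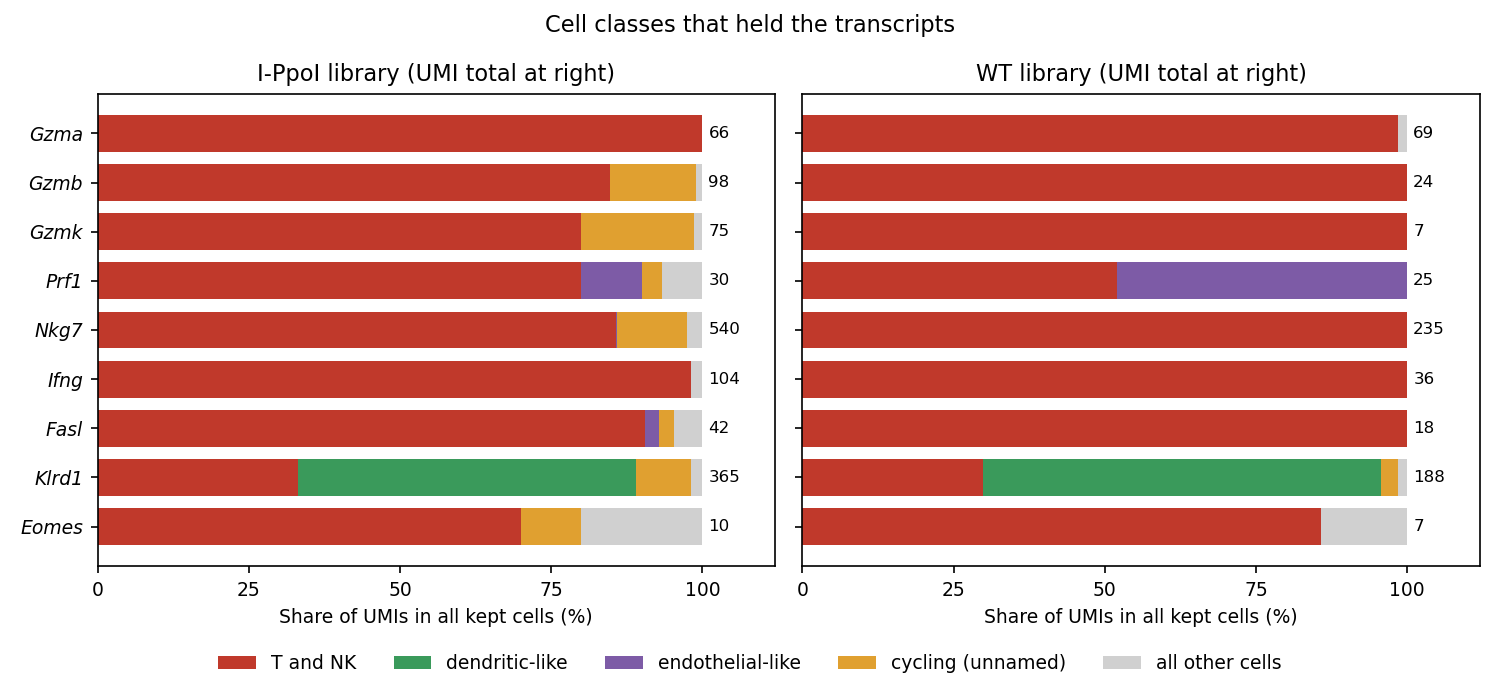
Share of each gene's UMIs (%, x axis) by cell class, in the I-PpoI library (left) and the WT library (right), with the UMI total of each gene beside its bar. T and NK lymphocytes (red) held most UMIs of each gene but Klrd1, for which dendritic-like cells (green) held 204 of 365 I-PpoI UMIs and 124 of 188 WT UMIs. Endothelial-like cells (purple) held 3 of 30 Prf1 UMIs in I-PpoI and 12 of 25 in WT.

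Lymphocytes were divided by UMIs of CD3, CD4, CD8 and NK genes, none of them a member. CD8 T-like cells were 73 of 259 I-PpoI lymphocytes (28.2%, 22.8 to 34.1) and 5 of 60 WT lymphocytes (8.33%, 2.76 to 18.4). NK-like cells, without CD3 and with Ncr1, Klrb1c or Klre1, were 2 of 259 I-PpoI lymphocytes (0.772%, 0.0937 to 2.76) and 12 of 60 WT lymphocytes (20.0%, 10.8 to 32.3). Cells with CD3 but not exactly one of CD4 and CD8 (CD3 only) were 129 and 34, CD4 T-like cells 47 and 9, and other cells 8 and 0. A T cell whose CD4 or CD8 transcripts were not captured falls into the CD3 only gate. Ncr1, which encodes the NK receptor NKp46, was found in 1 of 2 I-PpoI and 11 of 12 WT NK-like cells and in 0 cells of the other gates. Without the CD3 condition the NK share was 3.09% in the I-PpoI library, and with lymphocytes taken cell by cell in any cluster it was 3.02%. The WT shares under these settings were 28.3% and 24.2%. The 12 WT NK-like and 5 WT CD8 T-like cells limit every comparison within these gates.

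Within the T and NK cluster, granzyme transcripts lay mainly in CD8 T-like cells in I-PpoI and mainly in NK-like cells in WT, except for Gzmk. The totals below are those of the cluster, and all kept I-PpoI cells held 98 Gzmb and 75 Gzmk UMIs. Gzma, a granzyme that cleaves after basic residues, had 61 of its 66 I-PpoI UMIs in CD8 T-like cells (92.4%, 83.2 to 97.5) and 66 of its 68 WT UMIs in NK-like cells (97.1%, 89.8 to 99.6). Gzmb, which cleaves after aspartate and activates caspases, had 48 of 83 I-PpoI UMIs in CD8 T-like cells and 15 of 24 WT UMIs in NK-like cells. Gzmk had 46 of 60 I-PpoI UMIs in CD8 T-like cells, and its 7 WT UMIs lay in CD4 T-like cells (5) and CD8 T-like cells (2). Gzmk is known in mice and humans from CD8 T cells with a memory-like state.

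**Figure D2:**
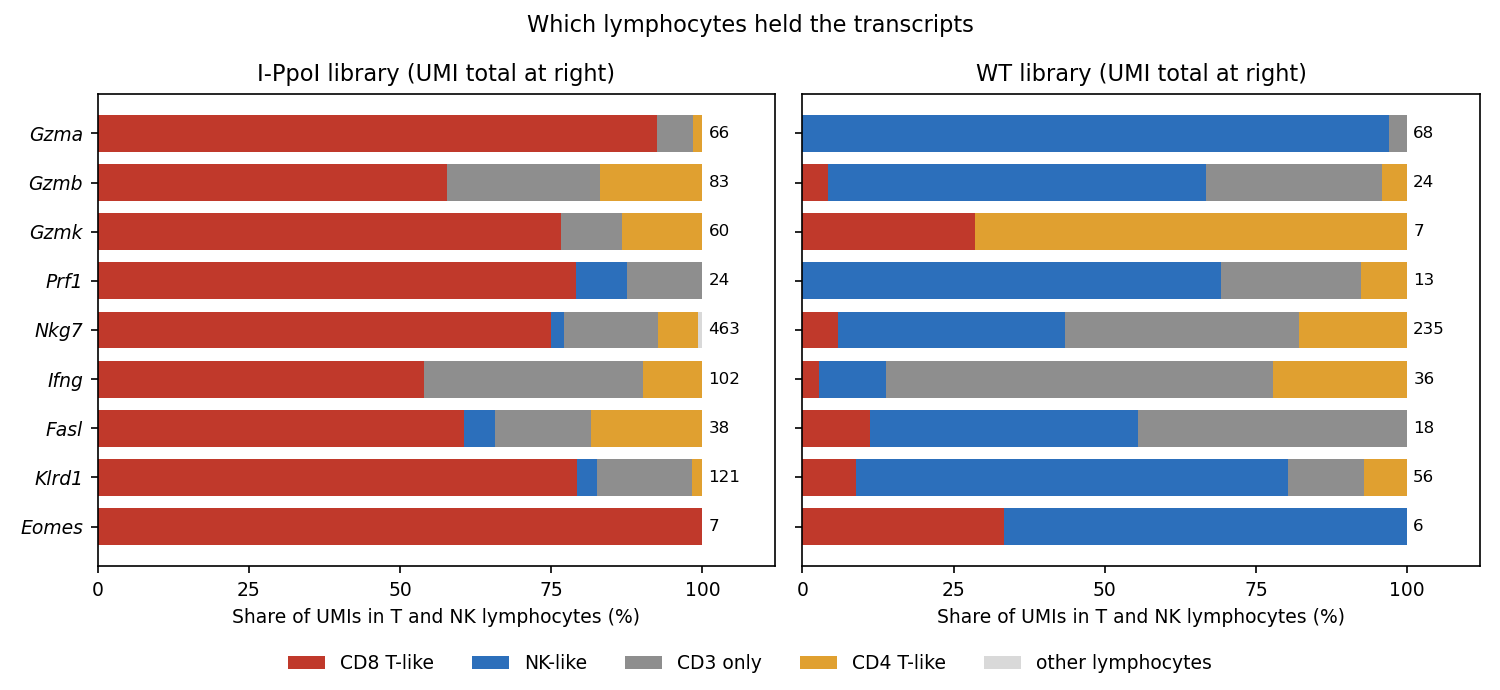
Share of each gene's UMIs within T and NK lymphocytes (%, x axis) by gate, in the I-PpoI library (left) and the WT library (right), with the UMI total beside each bar. CD8 T-like cells (red) held 61 of 66 Gzma UMIs in I-PpoI, and NK-like cells (blue) held 66 of 68 in WT.

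Few cells carried these UMIs. In I-PpoI CD8 T-like cells Gzma was found in 9 of 73, with 28, 10, 6, 6, 4, 3, 2, 1 and 1 UMIs, and in WT NK-like cells in 3 of 12, with 53, 11 and 2 UMIs. A single WT cell therefore held 53 of the 66 Gzma UMIs of the NK-like cells, which the intervals on Gzma UMIs do not take into account. Gzmb was found in 18 of 73 I-PpoI CD8 T-like cells, with at most 10 UMIs in a cell, and in 5 of 12 WT NK-like cells, with 4, 4, 3, 2 and 2 UMIs. Outside these gates Gzmb lay in 6 I-PpoI CD3 only cells, with 7, 5, 3, 2, 2 and 2 UMIs, against 1 WT CD3 only cell with 7. In CD4 T-like cells 4 I-PpoI cells held 8, 2, 2 and 2 Gzmb UMIs, and 1 WT cell held 1. Gzmk was spread more evenly, over 28 of 73 I-PpoI CD8 T-like cells (38.4%, 27.2 to 50.5) with at most 5 UMIs each, against 1 of 5 WT CD8 T-like cells.

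The granzymes overlapped in part within the I-PpoI CD8 T-like cells. Any granzyme was found in 39 of 73 (53.4%, 41.4 to 65.2), at least 2 of them in 14 and all 3 in 2. Gzma and Gzmb met in 6 cells, Gzmb and Gzmk in 8, and Gzma and Gzmk in 4. Of the 9 Gzma cells, 6 also had Gzmb. In WT NK-like cells all 3 Gzma cells also had Gzmb, and Gzmk was at 0 in the 12 cells. These are counts of detected UMIs, so a missing transcript in a cell can be one that was not captured.

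Summed over the whole T and NK cluster, the granzymes went different ways. Gzma stood at 79.9 CPM (UMIs scaled to the class total, 61.8 to 102) in I-PpoI lymphocytes and 349 CPM (271 to 443) in WT lymphocytes, a ratio of 0.229 (0.161 to 0.326). Without the cell richest in Gzma in each library its log2 ratio was -0.79 (-1.66 to 0.21) in place of -2.13, an interval that includes 0, so the size of that difference rests on these 2 cells, of 28 I-PpoI and 53 WT UMIs. Gzmb was at 100.5 CPM in I-PpoI and 123 CPM in WT lymphocytes, a ratio of 0.815 (0.512 to 1.34) whose interval includes 1. Gzmk was at 72.6 CPM in I-PpoI and 35.9 CPM in WT lymphocytes, a ratio of 2.02 (0.923 to 5.24) on 60 and 7 UMIs.

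Perforin and Nkg7, the gene for a membrane protein of cytotoxic granules needed for degranulation, were lower in the I-PpoI sum. Prf1 had 24 UMIs in 19 I-PpoI lymphocytes and 13 UMIs in 10 WT lymphocytes, or 29.1 and 66.7 CPM (ratio 0.435, 0.213 to 0.931). Of these, CD8 T-like cells held 19 of the 24 I-PpoI UMIs and NK-like cells 9 of the 13 WT UMIs. Nkg7 was at 560 CPM in I-PpoI and 1206 CPM in WT lymphocytes (ratio 0.465, 0.396 to 0.546). It was found in 119 of 259 I-PpoI cells (45.9%) and 49 of 60 WT cells (81.7%). Thinned to 1000 UMIs per cell, the shares were 32.0% in I-PpoI and 53.4% in WT cells. With lymphocytes taken cell by cell in any cluster the log2 ratio of Nkg7 was -0.48 in place of -1.11.

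The gates split the Nkg7 difference. In CD8 T-like cells Nkg7 was at 1354 CPM in I-PpoI (71 of 73 cells) and 674 CPM in WT (5 of 5 cells), a ratio of 2.01 (1.18 to 3.71). In CD3 only cells it was at 183 CPM in I-PpoI (28 of 129 cells) and 868 CPM in WT (23 of 34 cells), a ratio of 0.211 (0.153 to 0.291). In CD4 T-like cells it was at 202 CPM in I-PpoI (16 of 47 cells) and 1226 CPM in WT (9 of 9 cells), a ratio of 0.165 (0.100 to 0.268). The 2 I-PpoI NK-like cells had 5 Nkg7 UMIs each, and all 12 WT NK-like cells had 1 to 13. The CD3 only and CD4 T-like cells also differed between the libraries in their other markers. In CD3 only cells Il7r, a receptor gene of naive, memory and innate-like lymphocytes, was found in 104 of 129 I-PpoI and 6 of 34 WT cells, Foxp3, the regulatory T cell factor, in 29 and 0, Il1rl1 in 22 and 0, Trdc of gamma-delta T cells in 11 and 1, and an NK gate gene in 2 and 5. In CD4 T-like cells Il7r was found in 41 of 47 I-PpoI and 1 of 9 WT cells, Foxp3 in 12 and 0, Il1rl1 in 9 and 0, and Trdc in 2 and 0. How far such a mix of cells bears on the Nkg7 ratios was not tested.

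**Figure D3:**
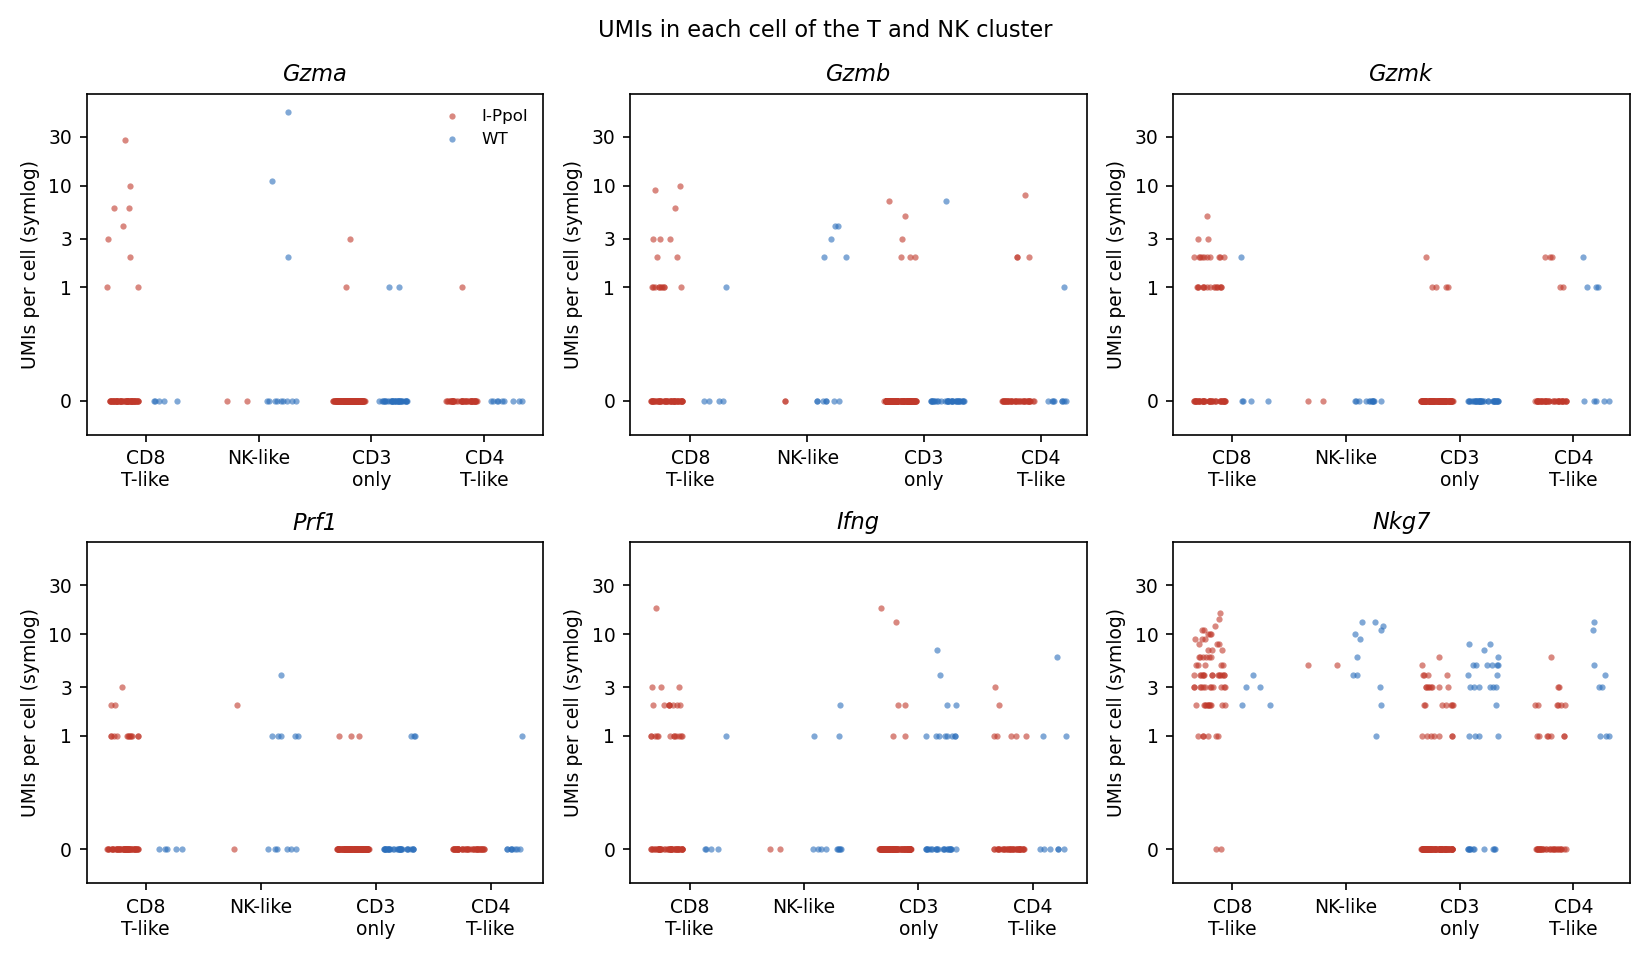
UMIs in each cell (y axis, symmetric log scale, 1 point per cell with horizontal jitter) for 6 of the genes by gate, I-PpoI (red) left of WT (blue). Gzma in WT lies in 3 NK-like cells, the highest with 53 UMIs, while Nkg7 is above 0 in all 12 WT NK-like cells and in 71 of 73 I-PpoI CD8 T-like cells.

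The effector ligands were carried by cells of several gates, NK-like cells among them. Ifng, the gene for interferon gamma, had 102 UMIs in 37 I-PpoI lymphocytes and 36 UMIs in 19 WT lymphocytes, or 123 and 185 CPM (ratio 0.668, 0.453 to 1.01). In I-PpoI CD8 T-like cells it was found in 24 of 73, the highest with 18 UMIs, and in CD3 only cells in 6 of 129, where 2 cells held 18 and 13 of the 37 UMIs. In WT it was found in 12 of 34 CD3 only, 3 of 12 NK-like, 3 of 9 CD4 T-like and 1 of 5 CD8 T-like cells. Fasl, the gene for the ligand of the death receptor Fas, had 38 UMIs in 32 I-PpoI lymphocytes and 18 UMIs in 12 WT lymphocytes, or 46.0 and 92.4 CPM (ratio 0.498, 0.277 to 0.927). It lay in 19 of 73 CD8 T-like cells of the I-PpoI library and in 6 of 12 NK-like and 5 of 34 CD3 only cells of the WT library.

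Klrd1 encodes CD94, the partner chain of NKG2 receptors that read nonclassical MHC class I. In T and NK lymphocytes it was at 146 CPM in I-PpoI (50 of 259 cells) and 287 CPM in WT (18 of 60 cells), a ratio of 0.509 (0.368 to 0.712). It was found in 40 of 73 I-PpoI CD8 T-like cells (54.8%) and in 10 of 12 WT NK-like cells. Eomes, a T-box factor of NK and memory CD8 T cells, had 7 UMIs in 6 I-PpoI lymphocytes, all CD8 T-like, and 6 UMIs in 4 WT lymphocytes, 2 NK-like and 2 CD8 T-like. Its ratio of 0.275 (0.0792 to 0.991) rests on these 13 UMIs. Eomes was at 0 in CD3 only and CD4 T-like cells of both libraries.

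Over the T and NK cluster, 5 of the 9 members (Gzma, Prf1, Nkg7, Fasl and Eomes) were at least 2-fold lower in I-PpoI and 0 were at least 2-fold higher, with 0.5 UMIs added to each sum. Among the 7455 genes with at least 10 UMIs, 9.05% were at least 2-fold lower and 12.3% at least 2-fold higher. The members' median log2 ratio was -1.03, and that of all 7455 genes -0.03. Fasl (-1.03) lay just past the limit, and Klrd1 (-0.98) and Gzmk (0.93) just short of it. Without the richest cell of each gene and library, 1 member was 2-fold lower and 1 higher. With lymphocytes taken cell by cell, 2 were lower and 1 higher. Of the intervals, 6 of 9 lay wholly below 1 and none wholly above it. The sum over the class mixes the number of cells of each gate with the RNA of each cell, and these cannot be told apart in it.

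Within CD8 T-like cells most members with enough UMIs had ratios above 1, with intervals that mostly included 1. Of 8 members with at least 10 UMIs, 4 passed the 2-fold limit upward with 0.5 UMIs added and 0 downward. Of all 3179 genes with that many UMIs, 23.7% passed it upward and 13.5% downward. The limit of 10 UMIs is on the sum of both libraries, of 256229 I-PpoI and 20759 WT UMIs. Genes low in I-PpoI therefore seldom reach it, which shapes these counts and the median. Eomes, with 7 and 2 UMIs (ratio 0.284, 0.0540 to 2.80), did not reach it and is in neither. Of the 4, Gzmb and Ifng had 1 WT UMI each, and Gzma and Prf1 had 0, so that for these the added 0.5 UMIs set the size and 2-fold is not reached at the floor of 3 UMIs. The median log2 ratio was 1.17, and 0.66 with the genes at 0 in WT set at their bound, against -0.05 over all 3179 genes. The WT side held 5 cells and 20759 UMIs. Gzma, with 61 UMIs in I-PpoI and 0 in WT, is 1.65-fold higher if 3 UMIs are taken as the WT floor. The lower limit of its exact interval is 1.30. Of the 61 UMIs, 28 lay in 1 cell, and the value without that cell is not given here. The ratio was 3.89 (0.665 to 157) for Gzmb on 48 and 1 UMIs, 4.46 (0.767 to 179) for Ifng on 55 and 1, and 1.56 (0.644 to 4.90) for Klrd1 on 96 and 5. Gzmk had 46 and 2 UMIs (1.86, 0.487 to 15.8), Fasl 23 and 2 (0.932), and Prf1 19 and 0, for which the floor gives no lower bound above 1. Of the 8 members, Nkg7 and no other with UMIs in both libraries had an interval above 1.

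**Figure D4:**
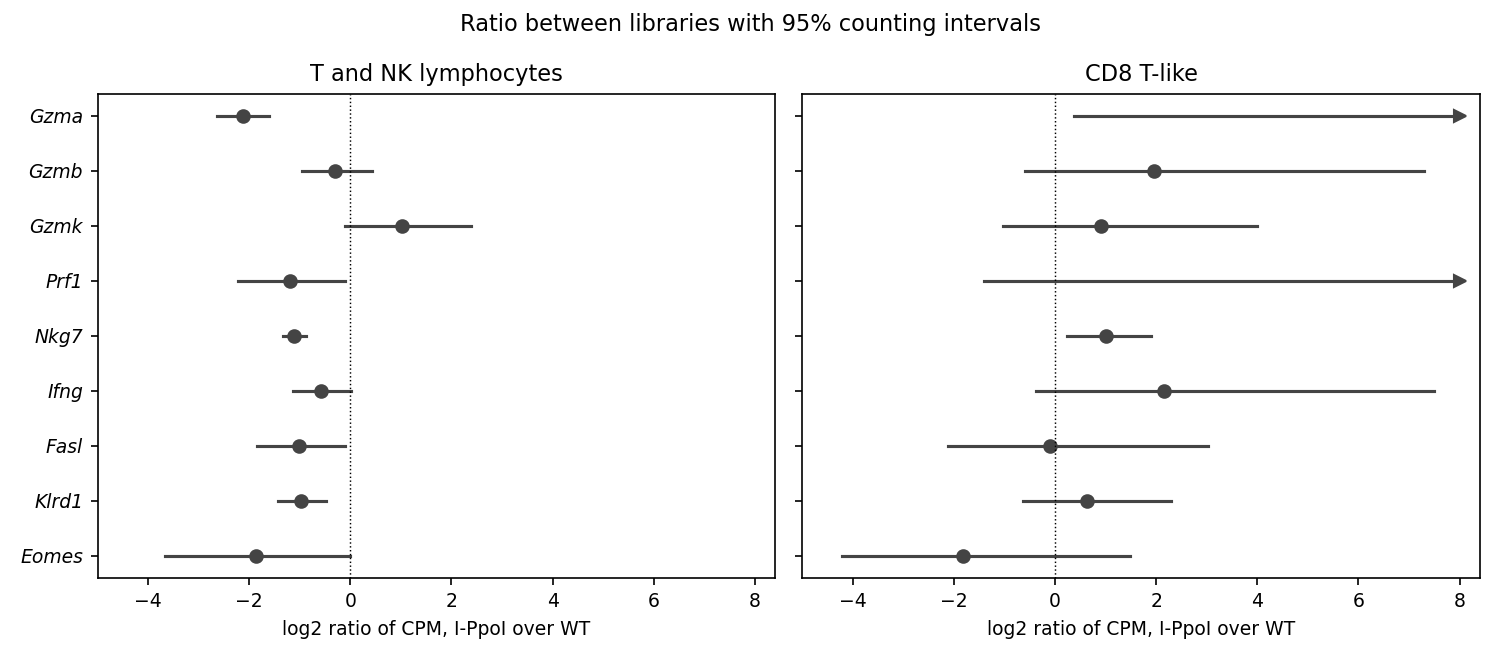
Ratio of CPM, I-PpoI over WT, on a log2 scale (x axis) for each gene in T and NK lymphocytes (left) and in CD8 T-like cells (right), with 95% counting intervals. Arrows mark genes at 0 UMIs in WT, whose ratio has no upper limit. Intervals lie below 0 for 6 genes at left, and at right they are wide because WT had 5 CD8 T-like cells.

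In CD3 only cells 5 members had at least 10 UMIs, of which 0 were higher and 3 lower in I-PpoI (Nkg7, Ifng and Fasl), where 15.2% of genes were higher and 9.77% lower. Ifng stood at 94.1 CPM in I-PpoI and 219 CPM in WT (ratio 0.429, 0.248 to 0.756), and Fasl at 15.3 and 76.3 CPM (0.200, 0.0572 to 0.657). In CD4 T-like cells 4 were tested, 1 of them higher (Gzmb) and 3 lower (Gzmk, Nkg7 and Ifng), where 17.7% of genes were higher and 14.1% lower. Gzmb had 14 I-PpoI UMIs and 1 WT UMI (3.12, 0.475 to 132) and Gzmk 8 and 5 (0.357, 0.103 to 1.39). Both of these intervals include 1, while that of Ifng (0.279, 0.0991 to 0.814) does not. In these gates, as in the cluster as a whole, the members with enough UMIs were mostly at lower CPM in I-PpoI. In CD8 T-like cells most ratios lay above 1, but against 5 WT cells only the intervals of Nkg7 and Gzma lay wholly above it. Whether the set as a whole is higher there is not settled by these counts.

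Transcripts typical of other cells were present in these sums. Haemoglobin genes made up 31 UMIs of 826126 in I-PpoI lymphocytes and 5638 of 194785 in WT lymphocytes, where 7 cells carried them. Proximal tubule markers were at 8.47 CPM in I-PpoI (5 of 9 markers at 0) and 539 CPM in WT (2 of 9 at 0), and macrophage markers at 309.9 and 416 CPM (1 of 9 and 7 of 9 at 0). The WT value came from C1qb and Ly6c2 alone, with C1qa, C1qc, Csf1r, Adgre1, Cd68, Mrc1 and Lyz2 at 0. Whether it reflects macrophage RNA was not tested. Without cells of over 10 haemoglobin UMIs, 6 members were at least 2-fold lower and 0 higher. The part of the other lists in the result was not tested.

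The genes around the set were read in the same cells. The counts of 2-fold lower and higher genes below stand against the 9.05% and 12.3% of all genes in this class. Of 11 degranulation genes with enough UMIs, 1 was at least 2-fold lower in I-PpoI (Lyst, ratio 0.265) and 0 higher, with a median log2 ratio of -0.09. Srgn, the granule proteoglycan, was at 959 CPM in I-PpoI and 616 CPM in WT (ratio 1.56, 1.28 to 1.90), Ctsw, a protease gene of cytotoxic cells, at 249 and 447 CPM (0.558, 0.432 to 0.726), and Lamp1 at 93.2 and 97.5 CPM (0.956, 0.573 to 1.67). Of 9 NK receptor genes, 8 were lower and 0 higher (median -2.27), 3 of which are the genes of the NK gate. Klrk1, which encodes NKG2D, was at 81.1 CPM in I-PpoI and 390 CPM in WT (0.208, 0.147 to 0.293), Tyrobp, the adaptor DAP12, with 19 and 77 UMIs (0.0582, 0.0332 to 0.0971), and Hcst, the adaptor DAP10, at 925 and 868 CPM (1.07, 0.901 to 1.27).

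Among 12 regulators of effector cells, 1 was higher (Bhlhe40, ratio 2.69, 1.56 to 5.04) and 2 lower (Tbx21 and Il12rb2), with a median of -0.12. Tbx21, which encodes T-bet, stood at 25.4 CPM in I-PpoI and 87.3 CPM in WT (0.291, 0.146 to 0.588). Of the regulators with the most UMIs, Id2 had a ratio of 0.531 (0.452 to 0.624), Il2rb 0.630 (0.482 to 0.831), Stat4 0.699 (0.512 to 0.967) and Hopx 0.762 (0.579 to 1.01). Of 7 effector cytokine and chemokine genes, 5 were lower and 0 higher (median -1.04). Xcl1, which draws cross-presenting dendritic cells, was at 318 CPM in I-PpoI and 1094 CPM in WT (0.291, 0.242 to 0.350), and Ccl4 at 248 and 508 CPM (0.488, 0.382 to 0.627). Ccl5 was at 3929 and 3296 CPM (1.19, 1.10 to 1.30) and Ltb at 903 and 785 CPM (1.15, 0.965 to 1.38). In CD8 T-like cells, where 23.7% of all genes were higher and 13.5% lower, 2 of 8 degranulation genes were higher and 2 lower (median -0.58), and 4 of 9 regulators were higher and 1 lower. Of the NK receptor genes 5 of 5 were higher, and of the cytokine genes 3 of 6 were higher and 0 lower. These counts are set against 5 WT cells, and Klrc2, Prdm1, Ccl3 and Tnfsf10, counted as higher, were at 0 in WT with a floor that gives no bound above 1. Klrk1, Klrc1, Cd226 and Il2rb, also counted as higher, had 1 WT UMI each and intervals that include 1. Of the 5 NK receptor genes, Hcst alone had an interval above 1 (2.16, 1.24 to 4.09). Ncr1, Klrb1c, Klre1, Fcgr3 and Tyrobp had under 10 UMIs in these cells and were not counted.

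On the side of the cells that receive these signals, the receptor genes of interferon gamma and Fas were measured in macrophage-like and endothelial-like cells. In macrophage-like cells Ifngr1 was at 385 CPM in I-PpoI and 404 CPM in WT (0.952, 0.850 to 1.07) and Ifngr2 had 1546 and 95 UMIs (0.933, 0.758 to 1.16). Of the genes reported there, Cxcl10 was at least 2-fold higher (91.5 and 42.9 CPM, ratio 2.13) and H2-T23 lower (0.311, 0.275 to 0.353), where 11.3% of genes were higher and 11.9% lower. Cxcl9 had a ratio of 0.555 (0.357 to 0.904), Irf1 1.45 (1.05 to 2.05) and Cxcl16 1.01 (0.918 to 1.11) in macrophage-like cells. In endothelial-like cells Cxcl10 was at least 2-fold higher (2.76, 1.91 to 4.05), where 7.47% of genes were higher and 7.18% lower. Irf1 had a ratio of 0.547 (0.462 to 0.645), H2-T23 0.552 (0.498 to 0.611) and Cxcl9 1.01 (0.421 to 2.36) in endothelial-like cells. Ifngr1 was at 207 CPM in I-PpoI and 153 CPM in WT endothelial-like cells (1.35, 1.19 to 1.54). Fas was at 141 CPM in I-PpoI and 153 CPM in WT endothelial-like cells (0.922, 0.797 to 1.07). Different clusters held these classes in the libraries. Endothelial-like cluster 4 had 225 I-PpoI and 8 WT cells, cluster 19 had 9 and 406, and cluster 29 had 0 and 149, while macrophage-like cluster 9 had 207 I-PpoI and 3 WT cells, cluster 11 had 478 and 2, and cluster 13 had 208 and 9.

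Klrd1 was the member with most of its UMIs outside lymphocytes. Dendritic-like cells held 204 of 365 I-PpoI UMIs, in 36 of 54 cells, and 124 of 188 WT UMIs, in 15 of 23 cells. That was 344 CPM in I-PpoI and 601 CPM in WT (ratio 0.572, 0.456 to 0.721). Cells with Klrd1 in this cluster had 0 UMIs of Cd3e, Ncr1, Nkg7, Gzma, Gzmb and Prf1 in both libraries. Cd209a, a marker of conventional type 2 and monocyte-derived dendritic cells, was found in 19 of 36 I-PpoI and 13 of 15 WT Klrd1 cells, against 6 of 18 and 2 of 8 of the other cells of the cluster. Markers of conventional type 1 dendritic cells were not more frequent in Klrd1 cells: Xcr1 was found in 6 of 36 I-PpoI and 1 of 15 WT Klrd1 cells, against 4 of 18 and 5 of 8 of the others, and Clec9a in 7 and 2, against 5 and 4. Zbtb46, a factor of conventional dendritic cells, was found in 7 and 6 Klrd1 cells, against 4 and 5 of the others, and Flt3 in 23 and 9, against 9 and 3. Ccr7 was found in 6 and 0, against 3 and 1, and Siglech in 3 and 0, against 1 and 2. Cd209a was singled out after these values were seen. Prf1 also lay outside lymphocytes. Endothelial-like cluster 29, with WT cells alone, held 10 Prf1 UMIs in 10 of 149 cells (14.9 CPM, 7.16 to 27.4), and endothelial-like cells held 3 UMIs in I-PpoI and 12 in WT. A cluster with cell cycle genes, left unnamed, held 14 Gzmb UMIs in 1 of 53 I-PpoI cells, 14 Gzmk UMIs in 2 and 62 Nkg7 UMIs in 2, and 0 of these 3 genes in 9 WT cells. Of the 53 I-PpoI cells, 2 passed the CD8 gate.

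Among all genes, those most like the set across 29 sums of class and library were Gm39323 (Pearson r 0.984, 10 UMIs), Samd3 (0.974, 32), Ms4a4b (0.965, 774), Cst7 (0.965, 45), Ctsw (0.959, 280) and Xcl1 (0.955, 326). Only sums of at least 30 cells were used, which left out NK-like cells and the WT CD8 T-like and CD4 T-like cells. Most of the sums were of classes outside the lymphocytes. The sums share libraries and differ in depth, and the correlations are a description.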

How the data were processed

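The 3' single-cell libraries (kit version 3.1, per the labels) were deposited as raw counts, whole numbers of UMIs for each gene in each barcode. The labels name Cell Ranger version 3.1 with an mm10 reference package and Seurat version 3, whereas the file headers name Cell Ranger 6.0.2, and which version made the deposited counts is not settled. Values are not normalized. Each group has 1 library (5268 I-PpoI and 5536 WT barcodes, 37811289 and 27793633 UMIs). The labels do not say whether a library pools mice.

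Barcodes with under 200 genes or over 50% mitochondrial UMIs were left out. Scrublet's automatic threshold marked 0.733% of I-PpoI and 0.155% of WT barcodes, so the top 4% of its scores was left out in both, 171 and 146 barcodes after ties, by a rule set after a first run. That left 3920 I-PpoI and 3071 WT cells. RNA from lysed cells in droplets was not removed. The steps used scanpy 1.11.5, anndata 0.12.19, igraph 0.11.9, scipy 1.17.1 and numpy 2.4.6 in Python 3.11.15, with 2000 variable genes (the members, the lists below and the NK gate genes left out), 30 components, 15 neighbours and Leiden resolution 1. Clusters were named from cell type markers at 25 CPM and 4-fold over the median cluster (10 CPM added, 3 markers needed). Clusters with haemoglobin genes leading, or with more leading markers of another class, stayed unnamed. These naming limits were set with the data in view. T and NK lymphocytes were 1 cluster, whose cells were then gated by UMIs of CD3, CD4, CD8 and NK genes.

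Counts were summed per library and class and given as CPM, with exact Poisson, conditional binomial (ratios) and Clopper-Pearson (shares) intervals of 95%. No test was run, as cells are not replicates. A gene counted as 2-fold changed from the log2 ratio with 0.5 UMIs added, for genes with at least 10 UMIs in the class. All 9 members are described, with up to 4 genes per list (those with the most UMIs) and the 6 genes closest to the members by Pearson r of log2(CPM + 10). Some list genes beyond these 4 are also named. Results of 1 list gene are not reported here. Of 31053 gene identifiers, 30934 matched GENCODE release 21 (GRCm38). The ratio steps were tested on simulated counts. Alternatives changed the cell filters, doublets, resolution, gates, scaling, thinning and richest cells. The members, gene lists and gates were chosen with earlier results of these data known.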

Additional observations from a re-analysis of the deposited data

Results flagged for a closer look

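Nkg7 was called out because its ratio of I-PpoI over WT differed between gates of the same lymphocyte cluster. It was 2.01 (1.18 to 3.71) in CD8 T-like cells, 0.211 (0.153 to 0.291) in CD3 only cells and 0.165 (0.100 to 0.268) in CD4 T-like cells, and the first interval overlaps neither of the others. The difference itself was not tested, as there is 1 library per group, and the WT side of the first ratio is 14 UMIs in 5 cells. The CD3 only and CD4 T-like gates also differed in other markers: Il7r was found in 104 of 129 I-PpoI and 6 of 34 WT CD3 only cells, and in 41 of 47 I-PpoI and 1 of 9 WT CD4 T-like cells. The part of these markers in the ratios was not tested.

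Barcodes left out by the filters also carried transcripts of the members. They held 131 UMIs in 10 of 1348 I-PpoI barcodes and 11 UMIs in 4 of 2465 WT barcodes. Of the I-PpoI UMIs, 129 were in 8 barcodes removed for their doublet score, 7 of which had a CD3 UMI, and 2 were in barcodes outside the gene or mitochondrial limits. In WT, 9 UMIs were in 2 doublet-scored barcodes. Nkg7 made up 76 of the 131 I-PpoI UMIs, and Gzmb 22.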

How the results depend on the processing

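No paired analysis was possible because each group has 1 library. Of 153 log2 ratios under an alternative, 152 kept the sign reported, the exception being Gzmb in T and NK lymphocytes (0.32 with lymphocytes taken cell by cell in any cluster, against -0.32). The number of members at least 2-fold higher in T and NK lymphocytes was 0 as reported and 1 with at least 500 genes per cell, with lymphocytes taken cell by cell, scaled without mitochondrial and ribosomal protein genes, and without the cell richest in each gene, and in each case this was Gzmk. The number at least 2-fold lower was 5 as reported, 2 cell by cell, 3 under that scaling and 1 without the richest cells. That scaling moves every log2 ratio by 0.14 in T and NK and by -0.11 in CD8 T-like cells. The number at least 2-fold lower in CD8 T-like cells was 0 as reported and 1 (Eomes, -1.90 and -2.38) without doublet removal and cell by cell, where it reached 10 UMIs. The NK-like share in I-PpoI was 0.772% as reported, 3.02% cell by cell and 3.09% without the CD3 condition. Why these values moved was not tested, except that the cell-by-cell gates and the NK gate differ by construction in the cells they hold. The alternatives without haemoglobin-rich cells, without the richest cell and without the CD3 condition were added after seeing the data. Of results named in the text, 57 values stayed as reported and 11 moved. Cell number limits the CD8 T-like comparison (5 WT cells) and the NK-like one (2 I-PpoI cells).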
